A study of Mus musculus with 8 samples.

Results

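The genes described here build the hair shaft and the inner root sheath, the sleeve that surrounds the shaft while a hair grows. They were chosen by name: 16 keratins of the hair shaft, 8 keratins of the inner root sheath, the companion layer keratin Krt75, 4 genes of root sheath hardening (Tchh, Tchhl1, Padi1 and Padi3) and 4 others (Crnn, Crym, Dlk2 and Cryba4). Of these 33 genes, 32 were found among the 49315 genes counted, and Krt85 was not analysed here. Back skin epidermis of 22-month-old mice had been isolated for RNA sequencing, 5 libraries labelled Tgfa knockout (Tgfa KO, here KO) and 3 labelled wild type (WT), which share age and tissue. The product of Tgfa, transforming growth factor alpha, activates the epidermal growth factor receptor, and mice without it have wavy hair. The sources used here do not give the knockout allele, the strain or the number of animals behind a library. The question asked of the libraries was which of them held transcripts of growing hair, and from which hair lineage.

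Hair follicles cycle between rest and growth. Only in growth do matrix cells at the base of the follicle divide and turn into concentric layers: the cortex and cuticle of the shaft inside, the inner root sheath around them and the companion layer outside it. Shaft and root sheath cells each pair acidic type I with basic type II keratins, the cortex adds keratin-associated proteins, and the root sheath is hardened by trichohyalin, which peptidylarginine deiminases convert and transglutaminases cross-link. Transcripts of these genes are thus used as signs of follicles in growth.

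All 8 libraries carried the markers of epidermis. CPM are counts per 1000000 counts of the library, adjusted with edgeR's normalization factors for single genes, and total CPM, used for sums over gene sets, scale by the library total alone. Krt5 was at 1830 to 4670 CPM, Krt14 at 657 to 3400 and Krt10 at 3740 to 11500. Total counts were 5313552 in KO replicate 2, 13831289 to 17417500 in the remaining 4 KO libraries and 12968728 to 18292303 in the WT libraries. Genes of olfactory, vomeronasal and trace amine receptors, 1929 genes used in the nose, served as a gauge of stray counts. They took 3743.45 total CPM in KO replicate 2, against 38.32 to 64.59 in each further KO library, and 34.55, 268.74 and 615.79 in WT replicates 1 to 3. Tgfa was at 130.71, 34.13, 43.0, 35.9 and 69.62 CPM in KO replicates 1 to 5, against 91.77, 84.42 and 110.85 CPM in WT replicates 1 to 3. The library labelled KO replicate 1 was therefore above every WT library, which sits oddly with its label, and KO replicates 2 to 5 were below them. Since the allele is not given, these counts cannot show whether a label is right. Library names end in br for that library, KO replicate 2 and the WT libraries, and in bl for KO replicates 3 to 5, and the sources used here give these endings no meaning.

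The promoters of 5 members are shown: those of Krt71 and Krt25 of the inner root sheath and of Tchh because these genes carry the values below, and those of the cortex keratins Krt31 and Krt34 because they hold both motifs marked here. Each is the 250 bases before the start, 5′ to 3′ along the gene, from RefSeq on GRCm38.p6, and capitals mark TATAAA and CTTTGAA on either strand.
Krt71 (chr15:101743098-101743347, minus strand): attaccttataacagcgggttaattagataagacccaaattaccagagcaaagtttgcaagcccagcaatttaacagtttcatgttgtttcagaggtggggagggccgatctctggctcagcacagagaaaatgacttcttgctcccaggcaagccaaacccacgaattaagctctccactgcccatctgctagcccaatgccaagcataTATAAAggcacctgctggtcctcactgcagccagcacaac
Krt25 (chr11:99322952-99323201, minus strand): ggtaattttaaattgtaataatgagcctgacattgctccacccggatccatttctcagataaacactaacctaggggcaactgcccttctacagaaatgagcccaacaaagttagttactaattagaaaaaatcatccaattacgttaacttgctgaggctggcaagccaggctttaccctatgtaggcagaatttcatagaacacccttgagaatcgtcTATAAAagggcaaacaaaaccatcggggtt
Tchh (chr3:93442080-93442329, plus strand): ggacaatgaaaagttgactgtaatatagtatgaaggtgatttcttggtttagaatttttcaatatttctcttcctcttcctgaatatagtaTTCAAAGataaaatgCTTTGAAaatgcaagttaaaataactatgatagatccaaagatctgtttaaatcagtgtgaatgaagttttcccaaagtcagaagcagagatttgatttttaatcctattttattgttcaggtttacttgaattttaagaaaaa
Krt31 (chr11:100050552-100050801, minus strand): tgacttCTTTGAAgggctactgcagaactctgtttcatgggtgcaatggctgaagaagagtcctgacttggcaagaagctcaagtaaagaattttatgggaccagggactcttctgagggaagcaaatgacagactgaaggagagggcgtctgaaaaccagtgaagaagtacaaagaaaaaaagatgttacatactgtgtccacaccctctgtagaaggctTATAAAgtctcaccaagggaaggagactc
Krt34 (chr11:100041555-100041804, minus strand): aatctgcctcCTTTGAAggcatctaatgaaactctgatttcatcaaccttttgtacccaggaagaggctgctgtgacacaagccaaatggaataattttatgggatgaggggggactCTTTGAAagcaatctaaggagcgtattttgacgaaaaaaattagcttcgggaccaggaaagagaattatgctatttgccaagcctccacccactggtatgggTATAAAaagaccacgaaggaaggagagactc

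RefSeq promoters were matched for 24 members, 9 of the shaft keratins, 7 of the inner root sheath keratins and 8 others, and 7 motifs were searched on both strands. TATAAA, the letters of a TATA box, lay in 7 of 7 inner root sheath promoters, 6 of 9 shaft promoters and 1 of 8 others, against 12.4% of all 32851 promoters. It began at position -40 in Krt71, -30 in Krt25, -29 in Krt31 and -31 in Krt34, counted back from the start. CTTTGAA, letters that LEF1 and TCF factors are known to bind, lay in 5 of 9 shaft promoters (Krt31, Krt32, Krt33b, Krt34 and Krt39), in 0 of 7 inner root sheath promoters and in that of Tchh among the 8 others, against 4.46% of all promoters. The shorter CTTTGA, which overlaps it, was in 5, 1 and 1 of the same groups, against 13.8%. CTTTGT was in 1 shaft and 1 inner root sheath promoter (16.5% of all), AACAAAG in 1 inner root sheath promoter (5.03%), GACGC in 1 of each (22.6%) and TTTATNAA in none (3.7%). Neighbouring type I keratin genes on chromosome 11 are related copies, so these promoters are not independent of each other, and a match of letters is not a binding site.

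KO replicate 5 held by far the most hair transcripts, and most of them were of the inner root sheath. The 8 inner root sheath keratins together took 6.89, 48.7, 14.7, 34.9 and 379 total CPM in KO replicates 1 to 5, against 20.4, 21.7 and 11.4 in WT replicates 1 to 3. In counts these sums were 120, 259, 226, 569 and 5239 in the KO libraries, against 374, 329 and 148 in the WT libraries. KO replicate 5 and KO replicate 2 were above the WT libraries, KO replicate 4 was above them by a smaller margin, and the other KO libraries overlapped with or lay below them. The group means were 96.8 ± 159 in KO (SD, n = 5) and 17.8 ± 5.61 in WT (n = 3), and the KO mean was 26.3 without KO replicate 5. The exact 95% binomial interval was 369 to 389 in KO replicate 5, 32.1 to 37.9 in KO replicate 4 and 19.4 to 24.2 in WT replicate 2, which covers counting error only. In bulk RNA, fewer cells of a type and less RNA per cell cannot be told apart.

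The 15 measured shaft keratins were also highest in KO replicate 5, at a lower summed level. Their sum was 7.41, 66.6, 6.24, 10.9 and 91.2 total CPM in KO replicates 1 to 5, against 11.3, 10.7 and 18.3 in WT replicates 1 to 3. KO replicates 5 and 2 exceeded every WT library, whereas the library labelled KO replicate 1 and KO replicate 3 lay below all of them and KO replicate 4 overlapped with them. The 57 keratin-associated protein genes (Krtap), whose products lie between the keratin filaments of the shaft, summed to 34.1, 64.6, 11.8, 12.4 and 210 total CPM in KO replicates 1 to 5, against 27, 28 and 19.2 in WT replicates 1 to 3. For these genes KO replicates 5 and 2 and the library labelled KO replicate 1 were above the WT libraries, before stray counts were subtracted.

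**Figure D1:**
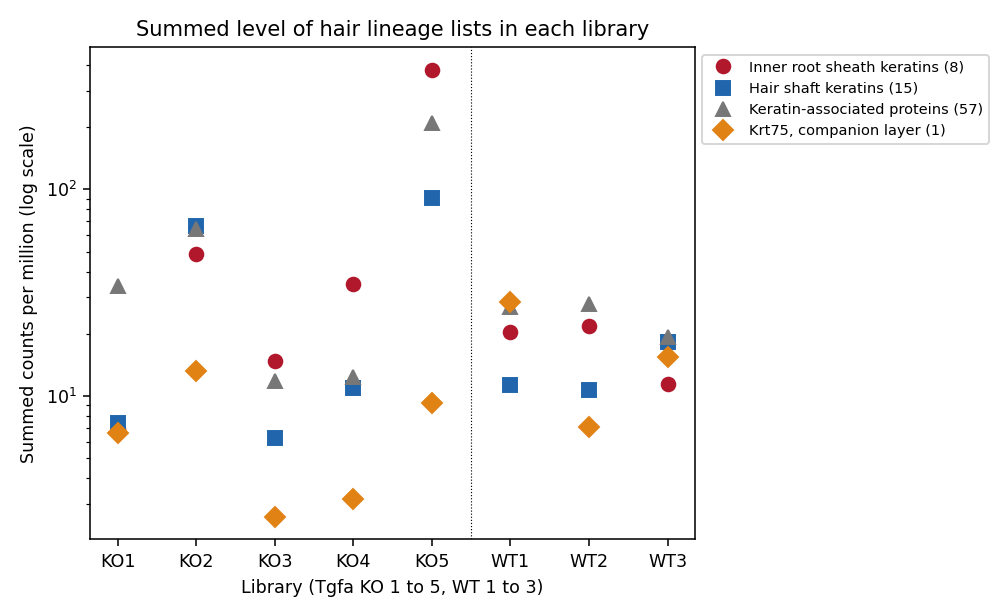
Summed total CPM (log scale) for 4 sets of hair genes in each library, KO replicates 1 to 5 and then WT replicates 1 to 3, 1 point per set and library. The inner root sheath keratins reached 379 in KO replicate 5, against 6.89 to 48.7 across KO replicates 1 to 4 and 11.4 to 21.7 in the WT libraries, while Krt75 was highest in WT replicate 1.

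Hair counts in KO replicate 2 stood close to its stray counts. Receptor genes gave 4.55 counts per kb in it, against 0.121 to 0.257 among the remaining KO libraries and 0.144, 0.932 and 1.83 in WT replicates 1 to 3. Relative to that density, the inner root sheath keratins had 27.7, 3.39, 96, 185 and 2570 times the counts in KO replicates 1 to 5, against 154, 21 and 4.82 times in WT replicates 1 to 3. The shaft keratins had 18.1, 2.81, 24.8, 35.1 and 375 times in the KO libraries, against 51.7, 6.31 and 4.68 times in the WT libraries. On this scale KO replicate 2 was the lowest of the 8 libraries for both sets. In it, markers of cells that epidermis should hold little of stood at a like multiple: 2.43 for endothelial, 2.51 for skeletal muscle, 2.52 for Merkel cell and 2.18 for fibroblast genes. With the receptor density times gene length subtracted, KO replicate 2 fell to 42.9 total CPM for the shaft keratins, against 66.6 before, and to 34.3 for the sheath keratins, against 48.7. Both stayed above the highest WT library, at 14.4 and 20.7 after the same subtraction. KO replicate 5 kept 90.9 and 379. In KO replicate 2 the markers of other cells also stayed above every WT library after this subtraction. Endothelial, skeletal muscle, Merkel cell and fibroblast genes kept 30.5, 26.1, 33.6 and 43.4 total CPM there. The highest WT values were 5.98, 10.3, 6.39 and 33. The subtraction therefore does not set the hair keratins of KO replicate 2 apart from these markers. The Krtap genes of KO replicate 2 stood at 1.56 times the receptor density and fell to 23.2 total CPM, against 64.6 before. That lay within the WT range, at 26.6, 25.0 and 12.4 in WT replicates 1 to 3 after the same subtraction.

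**Figure D2:**
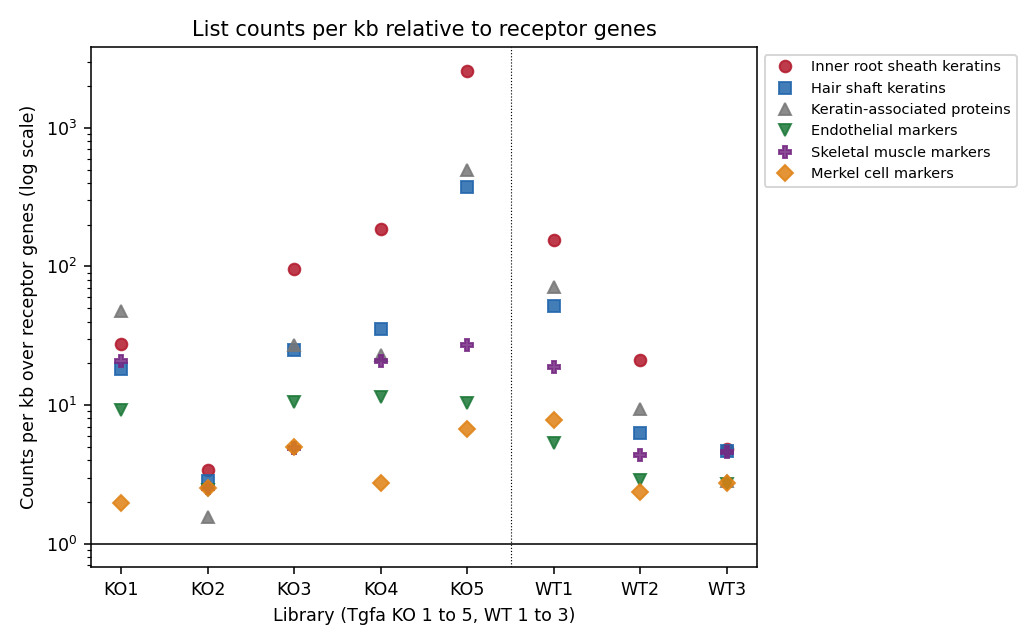
Counts per kb of each gene set divided by the mean counts per kb of the receptor genes in the same library (log scale), KO replicates 1 to 5 and then WT replicates 1 to 3, with the line at 1 marking equality. KO replicate 5 stood at 2570 for inner root sheath and 375 for shaft keratins, and KO replicate 2 at 3.39 and 2.81, next to its endothelial, muscle and Merkel cell markers at 2.43 to 2.52.

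A member was counted as above the receptor genes in a library if it had at least 3 counts and more counts per kb than 95% of them. This held for 24, 21, 22, 25 and 32 of the 32 members in KO replicates 1 to 5, against 28, 25 and 18 in WT replicates 1 to 3. KO replicate 5 was the only library in which all 32 passed, and at a level of 99% it still had 32, against 5 to 13 among KO replicates 1 to 4 and 22, 10 and 5 in the WT libraries. WT replicate 1 had the second highest number at both levels.

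Most members had their highest CPM in KO replicate 5, which was singled out after its values were seen. It was the highest library for 20 of 32 members (6.51% of all 19239 genes tested), KO replicate 2 for 10 (32.2%), WT replicate 1 for 1 (8.98%, Krt75) and WT replicate 2 for 1 (6.58%, Dlk2). It was the library labelled KO replicate 1 (16.9% of all genes), KO replicate 3 (9.4%), KO replicate 4 (9.83%) or WT replicate 3 (9.62%) for 0 members. Without KO replicate 2, KO replicate 5 was highest for 29 of 32 members (10.1% of all genes) and at least 2 times the highest other library for 23 of 32 (0.494%). Relative to the median of the other 7 libraries, KO replicate 5 was at least 4 times higher for 28 of 32 members (1.07% of all genes), with a median ratio of 10.6 over the members and 1.0 over all genes. It was at least 2 times the highest other library for 12 of 32 members (0.213% of all genes).

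**Figure D3:**
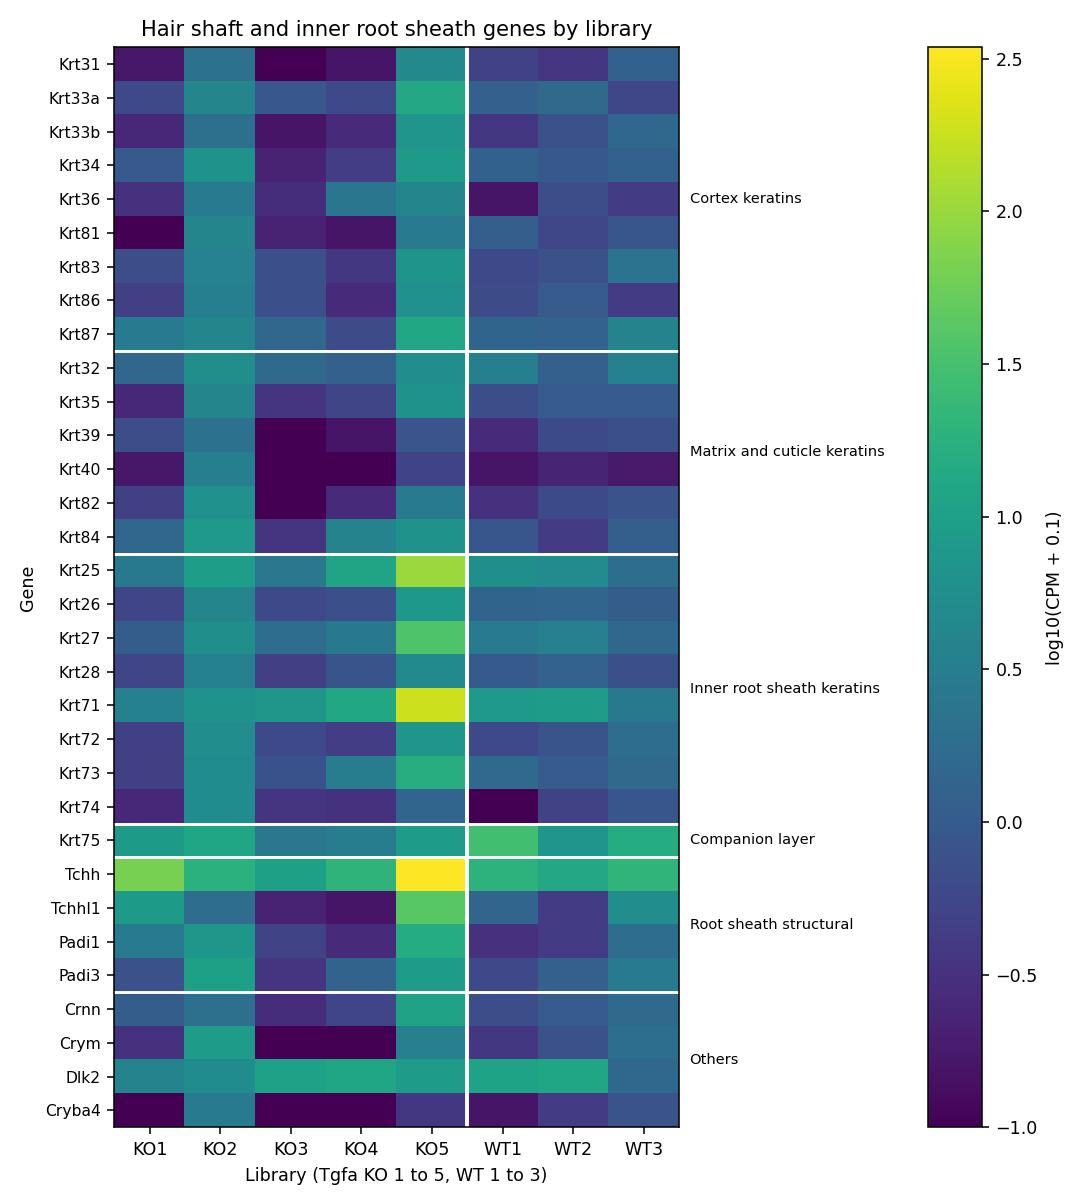
Log10 of CPM plus 0.1 for the 32 measured members (rows, grouped by hair layer) in KO replicates 1 to 5 and then WT replicates 1 to 3 (columns), with brighter cells higher. The column of KO replicate 5 is brightest for Tchh at 344.15, Krt71 at 187.17 and Krt25 at 101.73 CPM, and that of KO replicate 2 is of even brightness over many members.

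Within the inner root sheath, Krt71, Krt25 and Krt27 carried the signal. Krt71 (ENSMUSG00000051879, chromosome 15, 101733950 to 101743109, minus strand, GRCm38), a type II keratin whose mutations give mice wavy coats, was at 3.44, 6.55, 7.45, 13.14 and 187.17 CPM in KO replicates 1 to 5, against 8.05, 8.67 and 2.56 CPM in WT replicates 1 to 3. These came from 47, 38, 120, 232 and 2710 counts in the KO libraries, against 145, 132 and 33 in the WT libraries. KO replicate 5 was 14.2 times the highest other library, KO replicate 4 was next, and the remaining KO libraries overlapped with WT.

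Krt25 (ENSMUSG00000035831, chromosome 11, 99315516 to 99322951, minus strand), a type I keratin of the same cells, was at 2.56, 9.31, 2.54, 11.66 and 101.73 CPM in KO replicates 1 to 5, against 5.67, 5.05 and 1.78 CPM in WT replicates 1 to 3. The order of the libraries was close to that of Krt71, with KO replicates 5, 4 and 2 above every WT library. Krt27, another type I keratin of the sheath, was at 1.02, 5.69, 1.74, 2.55 and 36.05 CPM in the KO libraries, against 2.89, 3.35 and 1.47 CPM in the WT libraries. Krt73, a type II keratin of the sheath cuticle, was at 0.37, 5.17, 0.68, 2.94 and 15.95 CPM in the KO libraries, against 1.5, 0.92 and 1.55 CPM in the WT libraries. KO replicate 4 was above the WT libraries for Krt73 but within their range for Krt27. The other 4 sheath keratins, Krt26, Krt28, Krt72 and Krt74, reached at most 7.6 CPM in any library, and Krt74 was highest in KO replicate 2.

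Per kb of gene length, which allows genes to be set side by side, KO replicate 5 held 85.66 CPM of Krt71, 59.1 of Tchh, 51.15 of Krt25, 23.26 of Krt27, 20.06 of Tchhl1, 7.37 of Krt73 and 0.8 of Krt74. Krt71 made up 51.7% of its inner root sheath keratin counts. Type I genes made up 39.1% of the sheath keratin counts per kb there, against 34.5% to 48.4% among the remaining KO libraries and 40.1% to 49% in the WT libraries. All 4 type I and all 4 type II genes of the sheath were above 99% of the receptor genes in KO replicate 5, whereas 0 of the 4 type II genes were in KO replicate 2 and 0 of either type in WT replicate 3.

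The balance between the lineages differed between libraries. The ratio of inner root sheath to shaft keratin counts was 0.93, 0.732, 2.35, 3.2 and 4.15 in KO replicates 1 to 5, against 1.81, 2.02 and 0.624 in WT replicates 1 to 3. KO replicates 3 to 5 had more root sheath per shaft count than every WT library, and the remaining KO libraries lay within the WT range. These 3 libraries are also those whose names end in bl, an ending that no WT library has, so genotype and ending cannot be told apart for them. The low end of the WT range came from WT replicate 3 alone. Its sheath and shaft keratins stood at 4.82 and 4.68 times the receptor gene density, next to skeletal muscle markers at 4.6. Those of KO replicate 2 stood at 3.39 and 2.81 times. The part of stray counts in the ratios of both libraries was not tested.

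Trichohyalin, the granule protein of the root sheath and the medulla, had the highest CPM of any member in a single library. Tchh (ENSMUSG00000052415, chromosome 3, 93442330 to 93449077, plus strand) was at 63.93, 18.1, 10.18, 19.7 and 344.15 CPM in KO replicates 1 to 5, against 19.55, 13.52 and 20.71 CPM in WT replicates 1 to 3. KO replicate 5 was 5.38 times the next library, which was the one labelled KO replicate 1, and the other KO libraries overlapped with WT or lay below it. In the library labelled KO replicate 1, Tchh made up 59.7% of the counts of all members, against 38.6% in KO replicate 5 and 20.6% in WT replicate 1. That library had the fewest inner root sheath keratin counts of all 8, so its trichohyalin was not matched by Krt71 or Krt25.

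**Figure D4:**
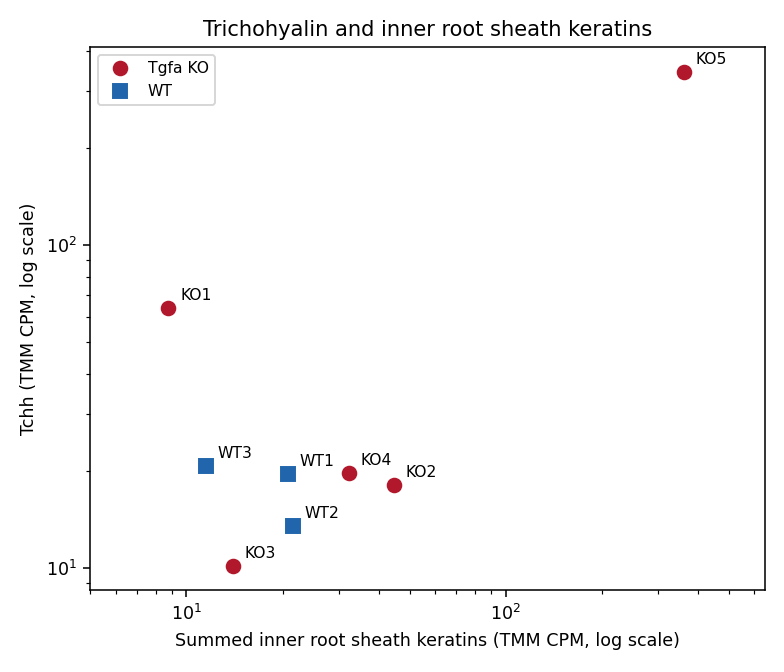
Tchh against the summed inner root sheath keratins, both in CPM on log scales, 1 point per library, with KO libraries as circles and WT libraries as squares. KO replicate 5 is high on both axes with Tchh at 344.15 CPM, and the library labelled KO replicate 1 has the second highest Tchh, 63.93 CPM, at the lowest keratin sum.

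Other genes were high beside trichohyalin in the library labelled KO replicate 1. Tchhl1, a trichohyalin-like gene beside Tchh, was at 8.27, 1.72, 0.12, 0.06 and 41.44 CPM in KO replicates 1 to 5, against 1.33, 0.33 and 5.27 CPM in WT replicates 1 to 3. The library labelled KO replicate 1 and WT replicate 3 followed KO replicate 5. Among genes outside the members, Krt16 was at 1727.85 CPM in the library labelled KO replicate 1 and 1073.09 CPM in WT replicate 3, against 52.06 to 222.42 CPM in the other 6 libraries. Psors1c2 was at 251.03 CPM in the library labelled KO replicate 1 and 179.26 CPM in WT replicate 3, against 12.35 to 43.13 CPM elsewhere. The part of these differences in the trichohyalin values was not tested.

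Padi1 and Padi3 encode peptidylarginine deiminases, which convert arginine in trichohyalin to citrulline. Padi1 was at 2.71, 7.24, 0.43, 0.17 and 15.26 CPM in KO replicates 1 to 5, against 0.22, 0.33 and 1.71 CPM in WT replicates 1 to 3. Padi3 was at 0.66, 10.0, 0.25, 1.25 and 9.05 CPM in the KO libraries, against 0.5, 1.12 and 2.71 CPM in the WT libraries. Both were highest in KO replicates 5 and 2 and at 2.71 CPM or less elsewhere. Tgm3, a transglutaminase of the sheath and the epidermis that was no member, was at 49.74, 15.51, 43.87, 38.05 and 64.51 CPM in the KO libraries, against 11.33, 23.31 and 7.14 CPM in the WT libraries, with a log2 fold change of 1.61 (edgeR adjusted p = 0.58).

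Krt75 ordered the libraries differently from the sheath keratins. Krt75 (ENSMUSG00000022986, chromosome 15, 101563345 to 101573904, minus strand), a type II keratin of the companion layer and the medulla, was at 8.41, 12.06, 2.48, 2.94 and 8.84 CPM in KO replicates 1 to 5, against 28.89, 7.02 and 15.51 CPM in WT replicates 1 to 3. KO replicate 5, the highest library for the sheath keratins, was only the fourth highest for Krt75, and the groups overlapped through WT replicate 2. The log2 fold change was -1.32 (SE 0.57, edgeR unadjusted p = 0.0443, adjusted p = 0.763), -0.89 among libraries ending in br and -0.69 without WT replicate 1. Krt75 made up 48.9%, 21.3%, 15%, 8.37% and 2.38% of the summed sheath and companion keratin counts in KO replicates 1 to 5, against 58.2%, 24.5% and 57.5% in WT replicates 1 to 3.

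Among the shaft keratins the highest levels in KO replicate 5 were of the cortex. Keratins of the matrix and cuticle had the highest CPM of the shaft keratins in KO replicate 2 (Krt84), KO replicate 3 (Krt32), KO replicate 4 (Krt84) and WT replicate 1 (Krt32). Krt33a, a type I cortex keratin, was at 0.51, 3.96, 0.81, 0.51 and 13.33 CPM in KO replicates 1 to 5, against 1.11, 1.58 and 0.47 CPM in WT replicates 1 to 3. Krt87, a type II hair keratin, was at 2.71, 4.14, 1.37, 0.57 and 12.64 CPM in the KO libraries, against 1.28, 1.18 and 3.72 CPM in the WT libraries. KO replicate 5 was 3.36 times the next library for Krt33a and 3.06 times for Krt87, KO replicate 2 came next for both, and the remaining KO libraries overlapped with WT or lay below it. Krt33a and Krt33b, and Krt81, Krt83, Krt86 and Krt87, are near-identical copies, so reads may have been shared among them. The remaining 13 shaft keratins reached at most 7.93 CPM in any library. Among them, Krt31 was at 0.07, 2.07, 0, 0.06 and 4.49 CPM in the KO libraries, against 0.39, 0.26 and 1.16 CPM in the WT libraries. Krt34 was at 0.88, 6.55, 0.12, 0.34 and 7.74 CPM in the KO libraries, against 1.17, 0.85 and 1.16 CPM in the WT libraries. These 2 cortex keratins, whose promoters are printed above, were above every WT library in KO replicates 5 and 2 only.

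A pair of shaft keratins also used in the papillae of the tongue, Krt84 and Krt36, had counts in KO replicate 4. Krt84 was at 1.39, 7.93, 0.25, 3.74 and 6.28 CPM in KO replicates 1 to 5, against 0.78, 0.33 and 1.09 CPM in WT replicates 1 to 3. Krt36 was at 0.22, 2.76, 0.19, 2.38 and 4.07 CPM in the KO libraries, against 0.06, 0.59 and 0.31 CPM in the WT libraries. KO replicates 2, 4 and 5 were above every WT library for both genes, the library labelled KO replicate 1 was so for Krt84, and the cortex keratin Krt31 was at 0.06 CPM in KO replicate 4. Both were named after their values were seen, as was Krt31. Krt84 had the smallest unadjusted p of the members that were higher in KO, 0.0407 (log2 fold change 2.40, SE 1.02, edgeR adjusted p = 0.745). Of 3 keratins of the mouth, Krt4 was at 2.43, Krt13 at 0.06 and Krt76 at 0.23 CPM in KO replicate 4. In the WT libraries Krt4 was at 0.39 to 1.0, Krt13 at 0.11 to 2.48 and Krt76 at 0.2 to 0.78 CPM, so Krt4 alone of the 3 was above WT in KO replicate 4. All 3 were highest in KO replicate 2.

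The 4 members of other kinds did not follow a single pattern. Crnn, a neighbour of Tchh of the same protein family, was at 1.02, 1.9, 0.19, 0.45 and 10.64 CPM in KO replicates 1 to 5, against 0.61, 0.92 and 1.55 CPM in WT replicates 1 to 3. Crym, a crystallin that binds thyroid hormone, was at 0.22, 8.62, 0, 0 and 3.38 CPM in the KO libraries, against 0.28, 0.66 and 1.78 CPM in the WT libraries. Dlk2, a membrane protein related to Notch ligands, was at 3.73, 5.17, 10.36, 12.34 and 8.91 CPM in the KO libraries, against 11.05, 12.47 and 1.47 CPM in the WT libraries. Crnn was highest in KO replicate 5 and Crym in KO replicate 2, and Dlk2 was spread over both groups. Dlk2 overlaps Abcc10 on the opposite strand, and since the sources used here do not give strandedness, their reads cannot be told apart. Cryba4, a lens crystallin, reached at most 2.76 CPM, in KO replicate 2.

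Between the genotypes no member passed the test. Of the 32 members 29 had enough counts to be tested, all but Krt39, Krt40 and Cryba4, and 0 were called by edgeR's quasi-likelihood test at an adjusted p under 0.05 (0.0052% of all genes, 1 of 19239). At an unadjusted p under 0.05 there were 2, Krt84 and Krt75, out of 29 (6.28% of all genes). DESeq2 (0.319% of its genes), limma voom (0.0% of its genes) and voom with library weights (6.47% of all genes) also called 0. DESeq2 gave no p-value for Krt71, so its result covers 31 of the 32 members and 7 sheath keratins. At an unadjusted p under 0.05 DESeq2 had 6 members (3.63% of its genes), voom 1 (7.2% of all genes) and voom with library weights 1 (25.1%). No member had all KO libraries above all WT libraries (3.4% of all genes) or below them (1.75%).

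The fitted fold changes were large and their errors were too. For Tchh the log2 fold change reached 2.35 (SE 1.12, adjusted p = 0.818 by edgeR). Krt71 had 2.76 (SE 1.36, adjusted p = 0.829) and Krt25 had 2.61 (SE 1.25, adjusted p = 0.818). Without KO replicate 5 these were 0.64 for Tchh, 0.25 for Krt71 and 0.64 for Krt25. Within the libraries ending in br, which do not include KO replicate 5, they were 1.05 for Tchh, -0.51 for Krt71 and 0.34 for Krt25. No WT library ends in bl, so that ending gives no comparison of its own.

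As a set, 27 of the 29 tested members had a positive log2 fold change (61.9% of all genes), with a median of 1.54 against 0.16 over all genes. The median was 1.44 for the 13 tested shaft keratins and 1.84 for the 8 inner root sheath keratins, positive in all 13 and all 8. In limma voom 18 of 29 members were positive (49.6% of all genes), with medians of 0.26 for the members, -0.17 for the shaft keratins (6 of 13 positive) and 0.62 for the sheath keratins (7 of 8). With library weights 15 of 29 were positive (49.2% of all genes), with medians of 0.02, -0.01 (6 of 13) and 0.8 (6 of 8). Without KO replicate 5 the medians were 0.42 for the members, 0.39 for the shaft keratins and 0.43 for the sheath keratins, against 0.17 for all genes. Without KO replicates 2 and 5, a setting added after seeing the data, they were -0.68, -0.9 and -0.29, against 0.03 for all genes, over the 18 members, 6 shaft keratins and 6 sheath keratins that still passed the filter on low counts. Among libraries ending in br alone they were 0.88, 0.96 and 0.72, against 0.13. The sign of the shaft median therefore changed with the method as well as with the libraries.

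**Figure D5:**
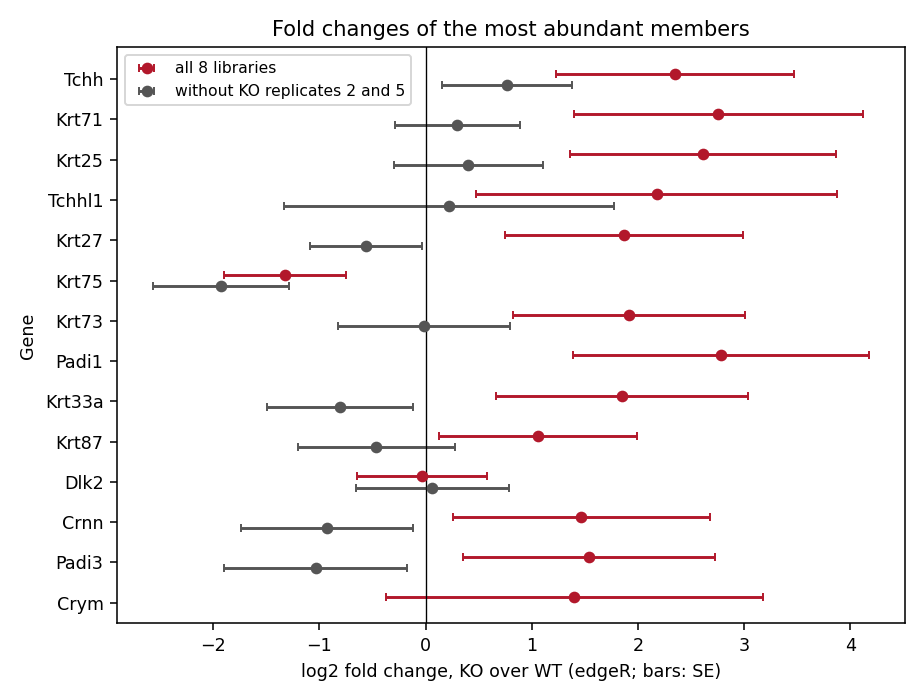
Log2 fold changes of KO over WT with their SE (edgeR) for the members with the highest CPM, with all 8 libraries and without KO replicates 2 and 5, and a line at 0. Krt71 stood at 2.76 with all libraries and at 0.30 without the pair, and Krt75 at -1.32 and -1.93.

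Most keratin-associated protein genes, taken by name and not by hair layer, were also highest in KO replicate 5. KO replicate 5 was the highest library for 42 of the 57 (6.51% of all genes) and KO replicate 2 for 14 (32.2%). By the level of 95% of receptor genes, 37, 11, 16, 18 and 54 of the 57 were above it in KO replicates 1 to 5, against 32, 23 and 8 in WT replicates 1 to 3. Krtap3-2 was at 7.75, 1.72, 2.92, 3.51 and 18.16 CPM in the KO libraries, against 11.28, 13.2 and 5.9 CPM in the WT libraries. Krtap1-5 was at 5.78, 0.86, 0.62, 0.45 and 12.64 CPM in the KO libraries, against 2.83, 1.38 and 0.47 CPM in the WT libraries. Both were highest in KO replicate 5, and the library labelled KO replicate 1 was second for Krtap1-5 only. Krtap7-1 reached 11.67 and Krtap16-1 10.64 CPM in KO replicate 5, against at most 0.59 and 0.93 CPM in the WT libraries. Of the 18 tested 0 were called by edgeR (0.0052% of all genes). Among the 18, 17 had a positive fold change (61.9% of all genes), with a median log2 value of 1.99.

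Among the regulators of hair layers, those also used by epidermis were the most abundant. Of 15 tested transcription factor genes of the matrix and its layers 0 were called by edgeR (0.0052% of all genes). Among the 15, 9 were positive (61.9% of all genes), with a median log2 fold change of 0.08, against 0.16 over all genes. In KO replicate 5, 7 of the 17 measured were above every WT library (28.1% of all genes), against 29 of the 32 members and 52 of the 57 Krtap genes. The median ratio of KO replicate 5 to the other libraries' median was 1.2 for these factors, 10.6 for the members and 12.5 for the Krtap genes.

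The most abundant factor, Gata3, which directs the inner root sheath and is also made in epidermis, was at 975.21, 254.4, 635.42, 672.85 and 508.66 CPM in KO replicates 1 to 5, against 639.56, 509.63 and 1004.59 CPM in WT replicates 1 to 3. In KO replicate 5 it was just below the WT range. That library was within the range for Cux1 and Ovol1, at 205.05 and 102.42 CPM, and below it for Prdm1 at 120.45 CPM, against 128.54 to 224.25 CPM in the WT libraries. The 4 factors named next were chosen after their values were seen. Lef1, a factor of the matrix and the cortex precursors, was at 0.29, 15.51, 1.12, 0.4 and 4.83 CPM in KO replicates 1 to 5, against 0.94, 1.31 and 2.95 CPM in WT replicates 1 to 3. Hoxc13, a regulator of shaft keratins, was at 0.95, 6.2, 3.29, 4.19 and 6.77 CPM in the KO libraries, against 2.61, 2.82 and 1.16 CPM in the WT libraries. Both were above every WT library in KO replicates 2 and 5, Hoxc13 also in KO replicates 3 and 4. Dlx3 was at 80.16, 19.48, 26.87, 28.03 and 58.57 CPM in the KO libraries, against 32.04 to 45.53 CPM in the WT libraries. Sox21 was at 55.74 CPM in KO replicate 5, against 17.53 to 27.31 CPM in the WT libraries. It was higher than WT in every KO library (3.4% of all genes), with a log2 fold change of 1.11 (edgeR adjusted p = 0.431).

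Other genes of the shaft were mixed in KO replicate 5. Of 12 measured, 8 were above every WT library in it (28.1% of all genes), and 4 were at least 4 times the median of the other libraries (1.07% of all genes). These 4, named after their values were seen, were Gprc5d at 4.7, Dsg4 at 5.73, S100a3 at 9.19 and Prr9 at 43.37 CPM. In the WT libraries Gprc5d was at 0.31 to 0.46, Dsg4 at 0.2 to 1.16, S100a3 at 1.18 to 2.95 and Prr9 at 3.02 to 27.85 CPM. Of these genes only Gprc5d was highest in KO replicate 5. Prr9 was at 62.1 CPM in the library labelled KO replicate 1, and Dsg4 and S100a3 were at 6.03 and 13.27 CPM in KO replicate 2. Dsg4 encodes a desmosomal cadherin of the shaft and S100a3 a calcium-binding protein of its cuticle. The median ratio over the 12 was 2.14. Of the 10 tested 0 were called by edgeR (0.0052% of all genes). Among the 10, 7 were positive (61.9% of all genes), with a median log2 fold change of 0.97. Hephl1 and Psors1c2, the most abundant, were highest in the library labelled KO replicate 1.

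Cells outside the shaft and sheath are given by the same ratio of KO replicate 5 to the median of the other libraries. It had a median of 1.71 over 9 outer root sheath genes, 1.12 over 10 genes of matrix signalling, 0.708 over 9 melanocyte genes and 0.601 over 7 dermal papilla genes. Above every WT library in KO replicate 5 were 5 of 9, 4 of 10, 3 of 9 and 0 of 7 genes of these sets (28.1% of all genes). By edgeR 0 genes of these sets were called (0.0052% of all genes). Krt17 of the outer root sheath was at 407.97 CPM in KO replicate 5, against 418.35, 313.21 and 1160.82 CPM in the WT libraries. Ptch1, a target and receptor of hedgehog signals, was at 63.06 CPM there, against 49.63 to 65.62 CPM in the WT libraries. Barx2 and Gli1 of the same sets, named after their values were seen, were at 71.55 and 8.08 CPM in KO replicate 5. Their WT libraries were at 21.61 to 34.44 and 1.89 to 3.26 CPM. Barx2 was above every WT library in each KO library (3.4% of all genes), at 74.31, 38.61, 37.73 and 49.49 CPM in KO replicates 1 to 4. Gli1 was above them in KO replicates 2 and 4 as well, at 10.17 and 5.83 CPM. Barx2 was highest in the library labelled KO replicate 1 and Gli1 in KO replicate 2.

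Most sebocyte genes were above the WT libraries in KO replicate 5 and some immune genes below them, in part together with other KO libraries. Of 7 sebocyte genes 6 were above every WT library in KO replicate 5 (28.1% of all genes), with a median ratio of 3.42. Scd1, which made up most of their sum, was within the WT range. Mgst1 was at 6.14, 14.99, 8.13, 9.4 and 18.03 CPM in KO replicates 1 to 5, against 3.03 to 3.54 CPM in the WT libraries. It was thus above every WT library in each KO library (3.4% of all genes). Elovl3, an enzyme of fatty acid elongation, was at 0.8, 4.14, 0.37, 1.98 and 4.77 CPM in the KO libraries, against 0.46 to 1.28 CPM. Awat2, a wax synthase, was at 0.44, 2.07, 0.68, 0.74 and 2.62 CPM in the KO libraries, against 0.33 to 0.85 CPM. Mc5r, Awat1 and Dgat2l6 were highest in KO replicate 2. The 6 immune genes summed to 493, 388, 379, 460 and 208 total CPM in KO replicates 1 to 5, against 458, 553 and 654 in WT replicates 1 to 3. KO replicate 5 was the lowest library in that sum. Cd74 was at 311.37, 160.12, 166.73, 199.31 and 83.22 CPM in KO replicates 1 to 5, against 243.87 to 283.67 CPM in the WT libraries. Cd207 of Langerhans cells was at 29.26, 21.72, 12.35, 19.2 and 9.32 CPM in the KO libraries, against 27.55 to 36.69 CPM. H2-Aa was at 251.9, 100.66, 84.95, 101.81 and 51.52 CPM in the KO libraries, against 135.93 to 295.3 CPM. For each of these genes KO replicates 2 to 5 were below every WT library, and KO replicate 5 was lowest. Cd3e and Trdc were within the WT range in KO replicate 5, at 16.58 CPM against 8.53 to 18.12 and 11.6 CPM against 6.36 to 13.65. Ptprc was just below it, at 26.45 CPM against 27.23 to 40.96 CPM. By edgeR 0 sebocyte and 0 immune genes were called between the genotypes (0.0052% of all genes). The part of these cell types in the hair values was not tested.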

How the data were processed

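Total RNA was sequenced, and the authors deposited 1 table of raw whole-number counts per gene for each of 8 libraries. The submitters' processing notes name Trimmomatic (0.36), STAR (2.5.2b), featureCounts from Subread 1.5.2, and the builds GRCh38 and GRCm38. The sources used here do not give settings, strandedness or the treatment of reads with several matches. Per the file headers the genes are mouse Ensembl genes. Of 49315 genes, 49056 matched GENCODE M21 on GRCm38, 91.4% of them with the same start and end, and 48970 were named.

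Groups were the genotypes in the labels, and replicates were numbered in order of deposition. No label states separate animals, and a p-value here reflects only the spread among these libraries, which may be technical. Members and lists were chosen with earlier results of these data known. The test was that of edgeR 4.0.16, run in R 4.3.3 (robust quasi-likelihood, TMM, filterByExpr, Benjamini-Hochberg), and log2 fold changes are KO minus WT. CPM of single genes uses TMM factors, and sums of lists use library totals. Alternatives were DESeq2 1.42.0, limma 3.58.1 voom with and without library weights, other scalings and filters, the name ending and each library left out. Leaving out KO replicates 2 and 5 together, or KO replicate 2 for the highest library, was added after seeing the data. The text gives every library for the 14 members with the highest CPM, and up to 4 genes of each other list by mean CPM, or by highest CPM for Krtap genes. Fits were tested on simulated data with less spread between libraries than these, which does not show their error rates here.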

Additional observations from a re-analysis of the deposited data

Results flagged for a closer look

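In the KO group, 13 of 35 values tested (32 members and 3 sums) had 1 library far from the others, with a gap to the next library of more than 0.71 of the group's range. Chance flags about 1 in 20 such groups if the values are normally distributed, which was not tested for these CPM. The values are also not independent, since most come from the same library. KO replicate 5 stood apart for Krt71 (0.947 of the range), Krt25 (0.908), the summed inner root sheath keratins (0.888), Krt27 (0.867), Tchh (0.839), Crnn (0.836), Tchhl1 (0.802), Krt33b (0.734), the summed Krtap genes (0.734) and Krt33a (0.731). KO replicate 2 stood apart for Cryba4 (0.899), Krt40 (0.875) and Krt74 (0.769), all of low count. The WT group has 3 libraries and was not tested in this way.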

How the results depend on the processing

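The count of called members was 0 in every setting run. The count of all genes called, 1 in edgeR, was 137 in DESeq2, 0 in voom, 1245 in voom with library weights, 0 with RLE size factors, 9 without a filter, 0 among libraries ending in br, 0 without KO replicates 2 and 5, and 0 to 1 with each library left out. The median log2 fold change of the members was 0.02 with library weights and -0.68 without KO replicates 2 and 5, that of the shaft keratins was -0.17 in voom, -0.01 with library weights and -0.9 without that pair, and that of the sheath keratins was -0.29 without it. With each library left out, the 3 medians stayed within 0.42 to 1.97, 0.39 to 1.75 and 0.43 to 2.14. With the level at 99% of receptor genes, 10, 5, 12 and 13 members passed in KO replicates 1 to 4, against 10 and 5 in WT replicates 2 and 3.

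Of 249 values of the 14 named members under other settings, 227 kept their sign and 22 changed it. Krt71 was -0.41 with the ending as a covariate and -0.51 among libraries ending in br. In voom without and with library weights, Tchhl1 was -0.09 and -0.4, and Crym was -1.58 and -2.09. Crnn was -0.06 with weights, and Dlk2 was 0.3 in voom and 0.03 with library totals. Without KO replicates 2 and 5, Krt27 was -0.56, Krt73 -0.02, Krt33a -0.81, Krt87 -0.47, Dlk2 0.06, Crnn -0.93 and Padi3 -1.04. With each library left out, Dlk2 ranged over -0.54 to 0.26, Crnn over -0.24 to 1.88 and Crym over -0.05 to 2.31. Causes of these changes were not tested. No paired analysis was possible because the labels carry no replicate numbers shared by the groups. Low counts limit most shaft keratins, and KO replicate 2 is both the shallowest library and the one with the most stray counts.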
